A study of Mus musculus with 15 samples.

Results

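The fatty acid elongation cycle adds carbons to long-chain fatty acids in the endoplasmic reticulum, and 10 of its genes were followed here through 15 mouse eyecup libraries: the condensing enzymes Elovl1, Elovl2, Elovl4, Elovl5, Elovl6 and Elovl7, the reductases Hsd17b12 and Tecr, and the dehydratases Hacd2 and Hacd3. The genes were taken from a list of names and are 10 of the 55421 genes listed in the count files. Each was found once, by its Ensembl identifier, and each passed the filters on variance and low counts. RNA came from posterior eyecups, that is retinal pigment epithelium (RPE), choroid and sclera without the neural retina, of C57BL/6J mice aged 2.5 months. The 4 WT mice carried no mutant allele of Tmem135, the 6 FUN025/+ mice carried the FUN025 mutation of Tmem135 on 1 allele, and the 5 FUN025/FUN025 mice carried it on 2 alleles. Mice of both sexes were used, and the paper lists different proportions of males and females for the genotypes. Eyecups were pooled within a mouse, and no label gives the sex of a library. Tmem135 encodes a transmembrane protein linked to mitochondrial fission, and the mutation is present in every cell, so the data do not show which eyecup cell type a change comes from.

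Each round of elongation has 4 steps. An ELOVL enzyme condenses an acyl-CoA with malonyl-CoA, HSD17B12 reduces the resulting 3-ketoacyl-CoA, an HACD enzyme removes water, and TECR reduces the remaining double bond. The ELOVL enzymes differ in the chains they accept, while the later steps serve all of them. In the eye the cycle is best known for making very long polyunsaturated chains of outer segment membranes, through ELOVL2, ELOVL4 and ELOVL5, and the RPE recycles lipids from the outer segments that it engulfs.

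Library totals lay between 10903183 and 20029919 counts, and all 4 WT libraries (from 18094977) were deeper than all 11 mutant libraries (up to 15038383), so depth and the WT genotype cannot be told apart by design. A level of 3 counts corresponded to 0.15 to 0.28 CPM (counts scaled to a common library total), counting error alone considered, and the smallest count of any member was 260. Tmem135 itself was at 63.8 ± 2.99 CPM (SD, n = 4) in WT, 74.9 ± 7.28 (SD, n = 6) in FUN025/+ and 88.2 ± 4.56 (SD, n = 5) in FUN025/FUN025 eyecups. By edgeR its log2 fold changes were 0.23 and 0.47 against WT (adjusted p = 0.0248 and 0.000147) and 0.24 between the mutants (adjusted p = 0.126). Under some alternatives, given in the last section, the FUN025/+ call was lost and the difference between the mutants passed. All 7 RPE markers were well detected, with a summed level of 16040 to 21536 CPM over all libraries. The 15 photoreceptor markers, whose cells should be absent from an eyecup, summed to 266 to 2489 CPM in WT, 106 to 722 in FUN025/+ and 118 to 464 in FUN025/FUN025 libraries, with WT replicate 2 far above the rest and no marker at 0 in any library. The 10 striated muscle markers summed to 4823 to 9719, 2615 to 7212 and 4174 to 5350 CPM in the same order. Of 6 choroidal endothelium markers, 2 passed as lower in FUN025/+ and 5 in FUN025/FUN025 eyecups against WT. Among striated muscle markers, 1 and 2 of 10 passed as lower, and among Schwann cell and myelin markers 1 of 6 in each. Of 6 tested adipocyte markers 2 were lower in FUN025/+, and 1 of 7 macrophage markers was higher in FUN025/FUN025 eyecups. The part of these cell types in the members' values was not tested. In bulk tissue, fewer cells of a type and less RNA per cell cannot be told apart.

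All 10 members were expressed in the eyecup. Levels of different genes were compared as reads per kilobase of merged exon after the same scaling (RPKM). In WT eyecups the reductases led, with Hsd17b12 at 63.7 ± 3.74 RPKM and Tecr at 62.5 ± 4.13 RPKM (SD, n = 4), and their libraries overlapped. Hacd3 (40.1 ± 1.04), Elovl1 (36.1 ± 5.51) and Elovl5 (33.2 ± 2.25) followed, each overlapping its neighbour. Elovl7 stood lower at 27.8 ± 2.5, Elovl4 at 15.7 ± 3.88 and Elovl6 at 8.88 ± 0.411, each below its upper neighbour in all 4 libraries and without overlap. Elovl2 (7.27 ± 0.928) and Hacd2 (6.88 ± 0.0597) were lowest and overlapped. Tecr therefore stood about level with Hsd17b12, while Hacd2 was the lowest and Hacd3 among the highest, so the bulk of HACD transcript was Hacd3. With the longest transcript in place of merged exons, the WT means were 108 RPKM for Tecr, 80.7 for Hsd17b12, 54.4 for Elovl1 and 42 for Elovl5, so that Tecr led and Elovl1 and Elovl5 stood above Hacd3.

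**Figure D1:**
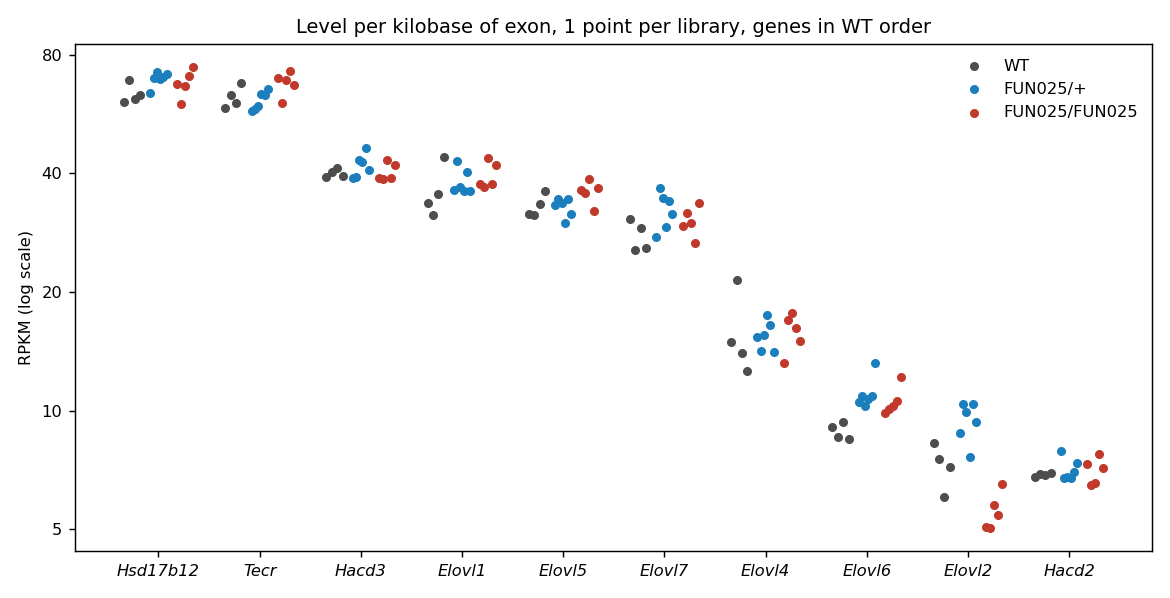
Level of each member in RPKM (log scale), with 1 point per library and genes ordered by their WT mean; grey is WT, blue FUN025/+ and red FUN025/FUN025. The order from Hsd17b12 and Tecr near 60 down to Hacd2 near 7 RPKM is similar in the 3 genotypes, apart from Elovl2, which lies above Hacd2 in FUN025/+ (9.43 against 7.09 RPKM) and below it in FUN025/FUN025 libraries (5.57 against 7.05 RPKM).

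The summed level of the 6 condensing enzymes was 129 ± 3.72 RPKM in WT (SD, n = 4), 139 ± 7.68 in FUN025/+ (SD, n = 6) and 138 ± 8.13 in FUN025/FUN025 eyecups (SD, n = 5). That of the 4 genes of the later steps was 173 ± 6.52, 179.9 ± 7.1 and 183 ± 10.2 RPKM. In both sums the 3 genotypes overlapped.

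Comparisons used edgeR's two-sided quasi-likelihood test on all tested genes with an adjusted p under 0.05. Between FUN025/+ and WT eyecups, 2 of 10 members passed, Elovl2 and Elovl6, and both were higher; over all 18979 genes tested, 13.7% passed, 7.08% of all genes being higher and 6.61% lower. Between FUN025/FUN025 and WT eyecups, 2 of 10 members passed again, Elovl6 higher and Elovl2 lower, against 14% of all genes (7.03% higher and 7% lower). Between FUN025/FUN025 and FUN025/+ eyecups Elovl2 was the 1 member that passed, lower, against 0.522% of all genes (0.327% higher and 0.195% lower). Against WT the 2 of 10 members were thus a share near the background. The genotypes did not overlap for 1 of 10 members in each comparison, against 10.9%, 14.8% and 1.13% of all genes in the order above. The median log2 fold change of the members was 0.07, 0.10 and -0.02 in the same order, beside -0.002, -0.007 and -0.004 over all genes. All 3 comparisons share libraries.

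**Figure D2:**
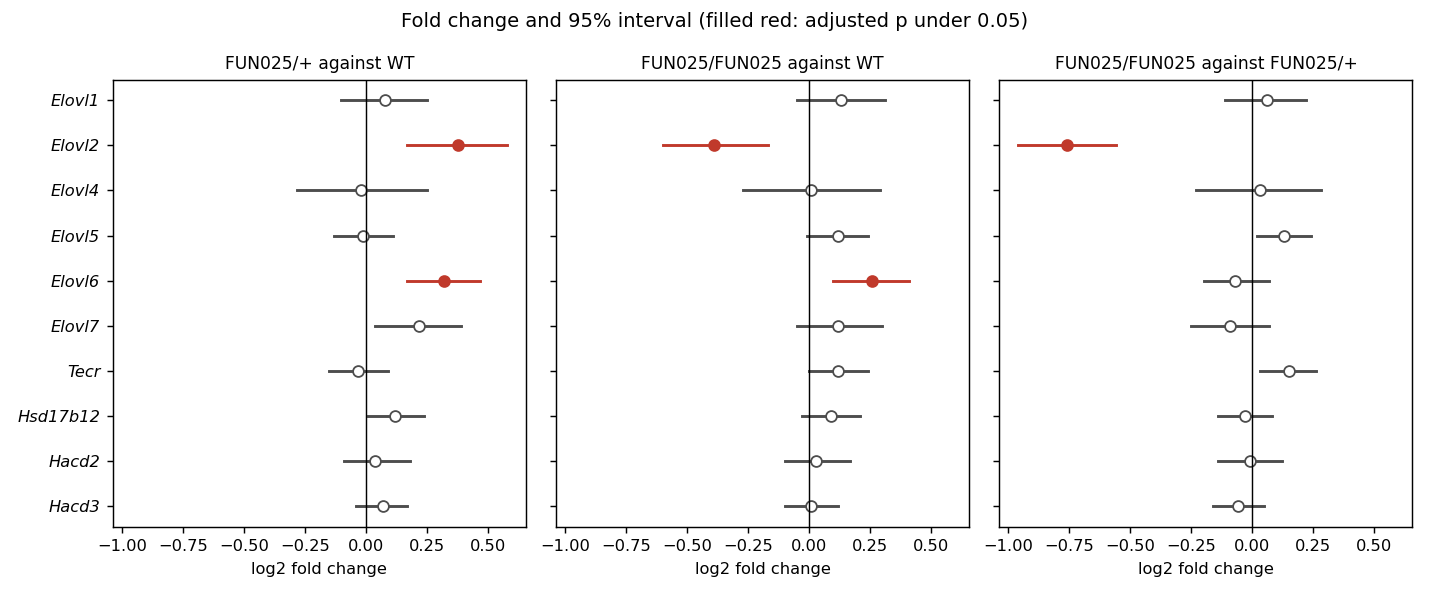
Log2 fold change of each member with its 95% interval in the 3 comparisons, where filled red points passed an adjusted p of 0.05 and open grey points did not. Elovl2 is to the right of 0 in FUN025/+ against WT (0.38) and to the left in FUN025/FUN025 against WT (-0.39), Elovl6 is to the right in both (0.32 and 0.26), and the other 8 members lie between -0.03 and 0.22 against WT.

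Elovl2, which elongates polyunsaturated chains on the path to docosahexaenoic acid, was the member with the strongest change. The gene spans chr13:41182381-41220405 on the minus strand of GRCm38, and none of its exon sequence is shared with another gene in stretches of 31 bases. The promoters of Elovl2 and Elovl6, the members that changed, are shown with that of Elovl5, a partner of Elovl2 in polyunsaturated chain elongation that did not pass the test. The sequences are those of RefSeq on GRCm38.p6, 5′ to 3′ on the gene's strand, ending where the annotated gene begins: chr13:41220406-41220653 (minus strand) for Elovl2, chr3:129532136-129532354 (plus strand) for Elovl6 and chr9:77917115-77917363 (plus strand) for Elovl5. Capitals mark matches on either strand to the GC box GGGCGG, the CCAAT box CCAAT and the E-box CACGTG.
Elovl2: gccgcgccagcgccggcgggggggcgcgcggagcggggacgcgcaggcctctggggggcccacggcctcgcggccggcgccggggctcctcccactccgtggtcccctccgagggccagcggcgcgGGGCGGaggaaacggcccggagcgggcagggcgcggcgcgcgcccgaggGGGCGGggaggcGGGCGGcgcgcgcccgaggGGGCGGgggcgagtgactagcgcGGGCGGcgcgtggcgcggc
Elovl6: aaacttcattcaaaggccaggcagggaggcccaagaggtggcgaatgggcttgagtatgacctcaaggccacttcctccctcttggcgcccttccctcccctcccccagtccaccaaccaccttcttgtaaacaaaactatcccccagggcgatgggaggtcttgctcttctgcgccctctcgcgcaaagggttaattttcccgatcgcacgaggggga
Elovl5: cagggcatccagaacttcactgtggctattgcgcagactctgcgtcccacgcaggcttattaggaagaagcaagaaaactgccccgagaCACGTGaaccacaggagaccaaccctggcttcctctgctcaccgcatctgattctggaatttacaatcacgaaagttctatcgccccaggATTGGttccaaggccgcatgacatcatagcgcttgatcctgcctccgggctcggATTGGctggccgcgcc
All 10 members had a promoter entry, 12 in all since Elovl1 and Elovl2 have 2 each, and the 250 bases before each start were searched. Of the windows searched, 248 bases are shown for Elovl2, 219 for Elovl6 and 249 for Elovl5. The Elovl2 window searched held 5 GC boxes, a number reached by 1.93% of 32851 mouse promoters. In that window 87.2% of bases were G or C, a content that 0.0426% of promoters reached. An Elovl1 window also held 5 GC boxes, and Elovl1 did not pass in any comparison. The second Elovl2 entry, at chr13:41220163-41220412, had 79.6% G or C and held no match to any of the 4 motifs. The Elovl6 window held no match to any of the 4 motifs, like 41.7% of promoters, and the Elovl5 window held 2 CCAAT boxes and 1 E-box. A GC box was found in the windows of 8 of 10 members (32.7% of all promoters), a CCAAT box in 5 (33.8%) and an E-box in 2 (6.02%). The sterol regulatory element TCACNCCAC was in none of the 12 windows (1.05% of promoters). In Elovl1 a GC box and the CCAAT box share bases.

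Elovl2 stood at 32.8, 29.9, 24 and 28.5 CPM in the 4 WT libraries. In the 6 FUN025/+ libraries it ran from 30.2 to 41.4 with a median of 38.3 CPM. The 5 FUN025/FUN025 libraries gave 20.1, 20, 22.9, 21.6 and 25.8 CPM. Every FUN025/FUN025 library was below every FUN025/+ library, and WT libraries lay between the mutant genotypes with an overlap on both sides. Relative to WT, Elovl2 was 1.3-fold higher in FUN025/+ eyecups (log2 fold change 0.38 ± 0.098 SE, adjusted p = 0.0164) and 0.765-fold its WT level in FUN025/FUN025 eyecups (-0.39 ± 0.103 SE, adjusted p = 0.0182). The difference between the mutant genotypes was -0.76 ± 0.095 SE on the log2 scale (adjusted p = 0.000166), that is 0.589-fold. This difference passed with each library left out in turn, between -0.82 and -0.73. The rise in FUN025/+ eyecups lost its call without WT replicate 3 (0.30, adjusted p = 0.058) or without WT replicate 4 (0.38, adjusted p = 0.0511). That call was also lost with the replicate number as a block (0.33, adjusted p = 0.062). The fall in FUN025/FUN025 eyecups lost its call without WT replicate 1, 2 or 4 or FUN025/FUN025 replicate 1, with log2 fold changes of -0.39 to -0.32 and adjusted p of 0.0507 to 0.0563.

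Most RPE markers had the signs of Elovl2, higher in FUN025/+ against WT for 5 of 7, lower in FUN025/FUN025 for 6 of 7 against WT and for 6 of 7 against FUN025/+. Rpe65, the retinoid isomerase of the visual cycle, had log2 fold changes of 0.18 in FUN025/+ and -0.15 in FUN025/FUN025 eyecups against WT, and -0.32 between them (adjusted p = 0.293, 0.419 and 0.344). Ttr, the thyroxine carrier transthyretin, had the opposite signs at -0.04, 0.21 and 0.25 (adjusted p = 0.819, 0.169 and 0.508), and Best1, a chloride channel, was at -0.17, -0.27 and -0.10 (adjusted p = 0.604, 0.418 and 1). None of the 7 RPE markers passed in any comparison, and their median was 0.07, -0.12 and -0.19 in the order of the comparisons above. Their mean log2 CPM lay at 9.61 to 9.91 in WT, 9.66 to 9.96 in FUN025/+ and 9.47 to 9.84 in FUN025/FUN025 libraries. These ranges overlap, but 3 of 6 FUN025/+ libraries were above every FUN025/FUN025 library and 3 of 5 FUN025/FUN025 libraries were below every FUN025/+ library. With that mean as a covariate, chosen after the data were seen, Elovl2 passed in all 3 comparisons, at 0.34, -0.31 and -0.65 (adjusted p = 0.0113, 0.0281 and 0.000609). Without it the values were 0.38, -0.39 and -0.76. The mean includes Ttr and Best1, and the part of RPE content in the Elovl2 values was not tested. With photoreceptor and muscle marker levels as covariates the difference between mutants stayed at -0.77 (adjusted p = 0.000357), while against WT Elovl2 kept its direction at 0.42 and -0.35 without passing (adjusted p = 0.333 and 0.317).

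**Figure D3:**
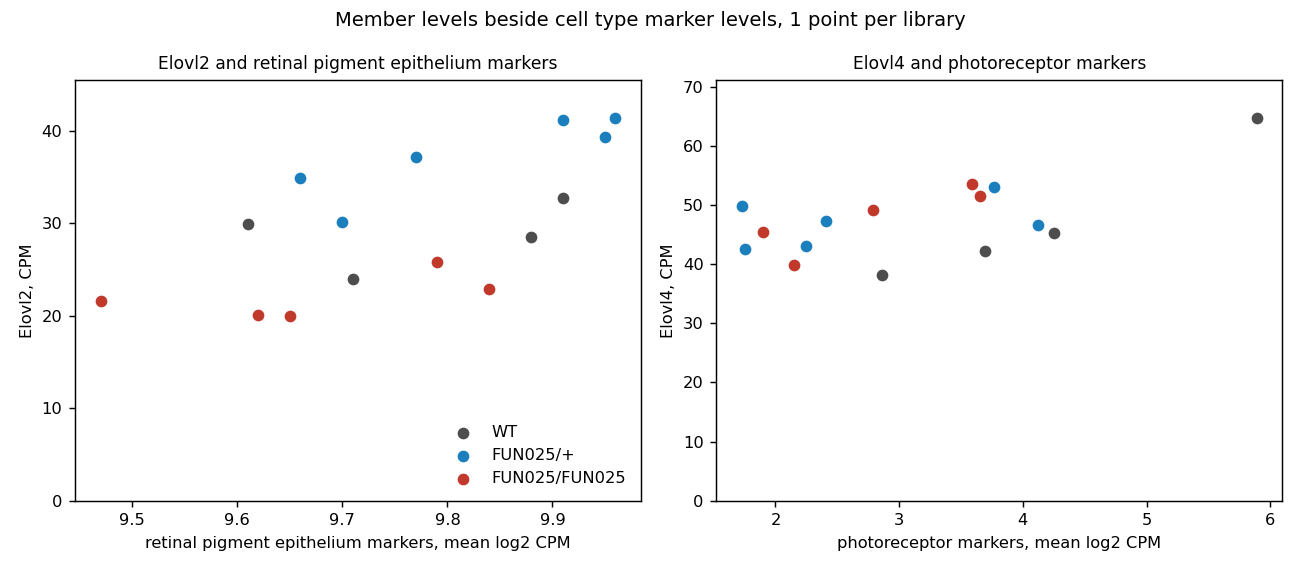
CPM of Elovl2 against the mean log2 CPM of 7 RPE markers (left) and CPM of Elovl4 against that of 15 photoreceptor markers (right), with 1 point per library; grey is WT, blue FUN025/+ and red FUN025/FUN025. All FUN025/+ libraries lie above all FUN025/FUN025 libraries for Elovl2, 3 of 6 FUN025/+ libraries (9.91 to 9.96) also lie above every FUN025/FUN025 library for the RPE markers (up to 9.84), and WT replicate 2 is highest for Elovl4 (64.7 CPM) and for the photoreceptor markers (5.89).

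Within the summed level of the 6 ELOVL genes, Elovl2 took 5.64% ± 0.747 (SD, n = 4) in WT, 6.75% ± 0.486 (SD, n = 6) in FUN025/+ and 4.03% ± 0.305 (SD, n = 5) in FUN025/FUN025 eyecups. The lowest FUN025/+ share was 5.81% and the highest FUN025/FUN025 share was 4.45%, and the latter lay below the lowest WT share of 4.75%. Elovl1 held the largest share in each genotype, at 27.9%, 27.3% and 28.7%, followed by Elovl5 at 25.7%, 23.6% and 26.1%. Among 13601 other genes with a mean of at least 5 CPM, those whose centred log2 CPM lay nearest to Elovl2 over the 15 libraries were Dgkb, a diacylglycerol kinase, Gpr139, an orphan receptor, and Itgav, the integrin alpha V subunit. Their root mean square differences from Elovl2 were 0.151, 0.173 and 0.179, beside a median of 0.381 over all candidates. Between FUN025/FUN025 and FUN025/+ eyecups they differed by -0.76, -0.75 and -0.46 (adjusted p = 0.00106, 0.0508 and 0.00512), values that their likeness to Elovl2 fixes in part.

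Elovl6, which extends palmitate to stearate and is a known target of the lipogenic factor SREBP1c, was higher in both mutant genotypes. By edgeR, Srebf1 had log2 fold changes against WT of 0.08 in FUN025/+ (adjusted p = 0.478) and 0.74 in FUN025/FUN025 eyecups (adjusted p = 2.82e-06). A link to Elovl6 was not tested. The Elovl6 gene lies at chr3:129532355-129638495 on the plus strand of GRCm38. The WT libraries gave 58.6, 55.3, 60 and 54.5 CPM, the FUN025/+ libraries 66.3 to 85.2 with a median of 69.3 CPM, and the FUN025/FUN025 libraries 63.5, 64.7, 66.2, 68.4 and 78.3 CPM. Every mutant library was above every WT library, and the mutant genotypes overlapped. Elovl6 was 1.25-fold its WT level in FUN025/+ (log2 fold change 0.32 ± 0.070 SE, adjusted p = 0.00536) and 1.19-fold in FUN025/FUN025 eyecups (0.26 ± 0.073 SE, adjusted p = 0.0254). Between the mutants the difference was -0.07 with a 95% interval of -0.20 to 0.07 (adjusted p = 1). The rise in FUN025/+ eyecups passed with each library left out. The rise in FUN025/FUN025 eyecups lost its call without WT replicate 2 (0.25, adjusted p = 0.0569), WT replicate 4 (0.24, adjusted p = 0.0736) or FUN025/FUN025 replicate 5 (0.20, adjusted p = 0.0657), and with an offset for GC content (0.20, adjusted p = 0.0978). With photoreceptor and muscle markers as covariates neither rise passed (0.32 and 0.25, adjusted p = 0.255 and 0.276). A share of 6.52% of the Elovl6 exon sequence recurs in other genes, most of it in Gm11295, so its counts are slightly uncertain.

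The other 4 condensing enzymes did not pass in any comparison. Elovl5, which elongates polyunsaturated chains before ELOVL2 acts, gave 111, 110.4, 118 and 128 CPM in WT, 105 to 121 with a median of 118 in FUN025/+, and 128, 126, 136, 113 and 129 CPM in FUN025/FUN025 libraries. Against the FUN025/+ libraries, 4 of 5 FUN025/FUN025 libraries were higher than all 6. The difference was 0.13 with an interval of 0.02 to 0.24 (unadjusted p = 0.0264, adjusted p = 0.688), and against WT it was 0.12 (-0.01 to 0.24, adjusted p = 0.2).

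Elovl4, the enzyme of the very long chains of photoreceptors and the gene of a dominant macular dystrophy, gave 45.2, 64.7, 42.2 and 38.2 CPM in WT libraries. FUN025/+ libraries ran from 42.5 to 53 with a median of 46.9 CPM, and FUN025/FUN025 libraries gave 39.9, 51.6, 53.6, 49.1 and 45.5 CPM. WT replicate 2, the highest library, also held the most photoreceptor marker transcript. With it set aside, which lowers the WT level by itself, 4 of 6 FUN025/+ and 4 of 5 FUN025/FUN025 libraries were above the remaining 3 WT libraries. The log2 fold changes were -0.02 (-0.28 to 0.25) in FUN025/+ and 0.01 (-0.27 to 0.29) in FUN025/FUN025 eyecups, the widest intervals among the members. Without WT replicate 2 they were 0.17 and 0.20 (adjusted p = 0.235 and 0.175), and with photoreceptor and muscle covariates 0.50 and 0.46 (adjusted p = 0.103 and 0.0596). Elovl4 passed under none of the alternatives, and the part of photoreceptor transcript in its values was not tested.

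Elovl1, which builds saturated very long chains for sphingolipids, ran from 85.5 to 119.9 CPM in WT and from 98 to 119 CPM in mutant libraries. Its change in FUN025/FUN025 eyecups was 0.13 (-0.05 to 0.31, adjusted p = 0.33). Of 15 fits with a library left out it passed in 1, without WT replicate 4 (0.25, adjusted p = 0.0456). That was its highest library of all, and leaving out the highest WT library raises a change against WT by itself. Elovl7, which prefers saturated and monounsaturated chains, ran from 103 to 123 CPM in WT, 111 to 147 in FUN025/+ and 107 to 135 in FUN025/FUN025 libraries. Its change in FUN025/+ eyecups was 0.22 (0.04 to 0.39, adjusted p = 0.0858). Of 15 fits with a library left out it passed in 1, without FUN025/+ replicate 1 (0.26, adjusted p = 0.0367). That was its lowest FUN025/+ library, so leaving it out raises the change by itself.

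None of the 4 genes that serve all chains passed in any comparison by edgeR. Hsd17b12, the 3-ketoacyl-CoA reductase, gave 146, 166, 149 and 152 CPM in WT, 154 to 174 with a median of 168 in FUN025/+, and 162, 145, 160.5, 170.1 and 179 CPM in FUN025/FUN025 libraries. Its log2 fold changes against WT were 0.12 (0.01 to 0.24, unadjusted p = 0.0384, adjusted p = 0.146) and 0.09 (-0.03 to 0.21, adjusted p = 0.326). Tecr, the trans-enoyl-CoA reductase, gave 128, 138, 132 and 149 CPM in WT, 127 to 144 with a median of 134 in FUN025/+, and 153, 132, 152, 159.6 and 147 CPM in FUN025/FUN025 libraries. In 4 of 5 FUN025/FUN025 libraries it was above all 6 FUN025/+ libraries, with a difference of 0.15 (0.03 to 0.26, unadjusted p = 0.0133, adjusted p = 0.533). Its change against WT in FUN025/FUN025 eyecups, 0.12 (adjusted p = 0.193), passed only with an offset for GC content (0.21, adjusted p = 0.0208).

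The dehydratases did not pass in any comparison. Hacd2 gave 25.5, 25.9, 25.7 and 26 CPM in WT, a coefficient of variation of 0.868%, and 24.2 to 29.6 CPM over the mutant libraries. Hacd3 gave 106, 109, 112 and 107 CPM in WT and 105 to 126 CPM over the mutant libraries. Their log2 fold changes against WT were between 0.01 and 0.07, with 95% intervals inside -0.10 to 0.18. A share of 9.98% of the Hacd2 and 10.2% of the Tecr exon sequence recurs in other genes, and reads from those stretches may be split between them.

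**Figure D4:**
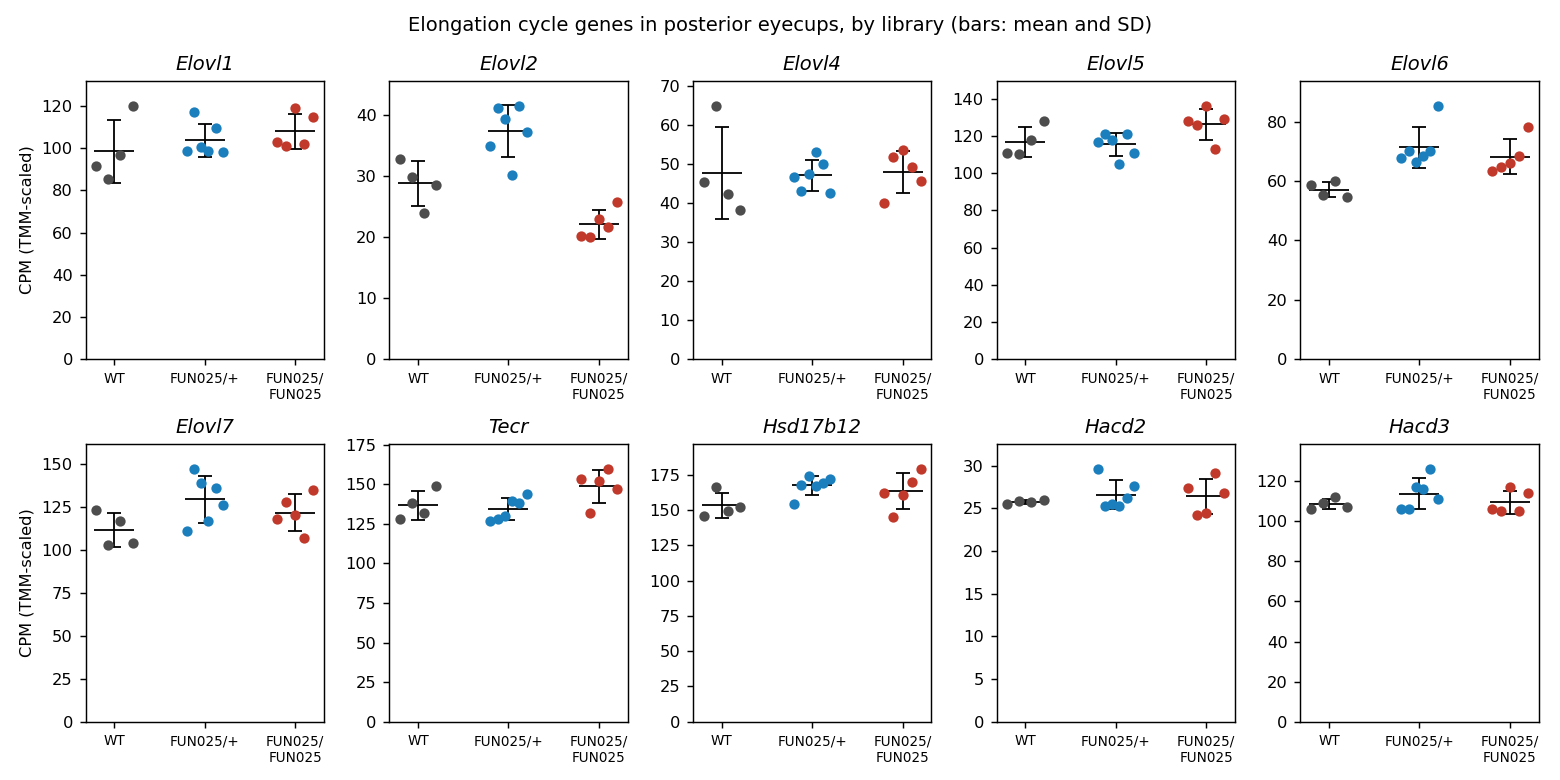
CPM of the 10 members, with 1 point per library and black bars for the mean and SD of each genotype; axes start at 0. The panels show Elovl2 with FUN025/FUN025 libraries (20 to 25.8) wholly below FUN025/+ libraries (30.2 to 41.4), Elovl6 with WT libraries (54.5 to 60) wholly below both mutant genotypes, and overlap of all genotypes in the other 8 genes.

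Of the 4 other enzymes of the cycle, Hacd4 alone passed, higher in FUN025/FUN025 than in WT eyecups (52.9 ± 4.18 against 45.2 ± 2.07 CPM, log2 fold change 0.23, adjusted p = 0.0237). It lost the call without WT replicate 3 or 4 or FUN025/FUN025 replicate 5 (0.18 to 0.23, adjusted p up to 0.0614), with the GC offset (0.15, adjusted p = 0.115) and with photoreceptor and muscle covariates (0.30, adjusted p = 0.132). Hacd1, the muscle form, was at 8.26 ± 0.867 CPM in WT and changed by 0.05 in FUN025/FUN025 eyecups (adjusted p = 0.827). Tecrl was near 0.5 CPM in all genotypes (0.498 ± 0.258 in WT). Elovl3 had 0 to 5 counts per library and was not tested.

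The genes around the cycle were counted by list. Over 53 tested genes of 7 lists, 7 rose and 2 fell in FUN025/+ eyecups, 17 rose and 1 fell in FUN025/FUN025 eyecups, and 9 rose and 0 fell between the mutants. Over all genes the shares that rose and fell were 7.08% and 6.61%, 7.03% and 7%, and 0.327% and 0.195%, so that 1 of 10 genes of a list is near the background against WT. Of 7 desaturases, which act in turn with the ELOVL enzymes, 4 rose in FUN025/FUN025 eyecups: Scd1 and Scd2, which make monounsaturated chains, by 1.84 and 1.30 on the log2 scale, and Fads1 and Fads2, which desaturate polyunsaturated chains, by 0.73 and 0.53 (adjusted p = 3.13e-08, 2.41e-09, 6.48e-08 and 2.36e-05). Fads1 and Fads2 were thus higher in FUN025/FUN025 than in FUN025/+ eyecups (0.57 and 0.41, adjusted p = 2.02e-06 and 0.000585) where Elovl2 was lower. Of 10 genes of substrate supply, 6 rose in FUN025/FUN025 eyecups, among them Fasn, the fatty acid synthase (0.42, adjusted p = 3.51e-05), Acaca, which makes malonyl-CoA (0.40, adjusted p = 2.32e-05), and the acyl-CoA synthetases Acsl1 (0.36, adjusted p = 0.00436) and Acsl4 (0.34, adjusted p = 0.00064). With photoreceptor and muscle markers as covariates Acsl1 and Acsl4 did not pass (0.39 and 0.37, adjusted p = 0.123 and 0.0544), while the 4 desaturases, Fasn and Acaca did. In FUN025/+ eyecups Scd2 (0.36, adjusted p = 0.00159), Fads1 (0.16, adjusted p = 0.0423) and Acaca (0.16, adjusted p = 0.032) rose. Scd1 and Fasn did not pass there (0.03 each, adjusted p = 0.882 and 0.706).

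Of 6 cytochrome b5 electron carriers, which supply electrons to the desaturases, Cyb5r3 rose (0.21, adjusted p = 0.00544), Cyb5b rose (0.17, adjusted p = 0.0207) and Cyb5a fell by 0.31 (adjusted p = 0.00077) in FUN025/FUN025 eyecups. In FUN025/+ eyecups Cyb5r3 rose by 0.25 (adjusted p = 0.00157) and Cyb5a fell by 0.29 (adjusted p = 0.000941). With the same covariates Cyb5r3 and Cyb5b did not pass in FUN025/FUN025 eyecups (0.16 and 0.19, adjusted p = 0.238 and 0.236), and Cyb5b was also lost without WT replicate 4 or FUN025/FUN025 replicate 5 (adjusted p = 0.0649 and 0.0528) and with the GC offset (adjusted p = 0.0705). Of 10 genes of peroxisomal chain shortening, Abcd3, a transporter of fatty acyl-CoA into peroxisomes, rose by 0.21 in FUN025/FUN025 (adjusted p = 0.0138; 0.304 with the covariates) and by 0.17 in FUN025/+ eyecups (adjusted p = 0.0349). Scp2, a sterol carrier protein and thiolase, was higher by 0.19 in FUN025/+ eyecups (adjusted p = 0.0432), a call that was lost under many alternatives, among them thinning to the smallest library (adjusted p = 0.0588), the fit of those genotypes alone (0.0594), the GC offset (0.162), the covariates (0.473) and leaving out WT replicate 2, 3 or 4, FUN025/+ replicate 2, 3, 5 or 6 or FUN025/FUN025 replicate 2 or 3 (0.0513 to 0.108). None of 6 ceramide synthases, which use the very long chains, passed in any comparison. Of 11 lipogenic regulators, Insig1 (1.22, adjusted p = 5.05e-07), Srebf1 (0.74, adjusted p = 2.82e-06) and Srebf2 (0.27, adjusted p = 0.0148) rose in FUN025/FUN025 eyecups, Srebf2 losing its call with the covariates (0.34, adjusted p = 0.126). Insig1 also rose in FUN025/+ eyecups (0.58, adjusted p = 0.00069), where Srebf1 did not pass (0.08, adjusted p = 0.478). Nr1h3 fell by 0.36 (adjusted p = 0.0228) in FUN025/+ eyecups, beside -0.28 in FUN025/FUN025 eyecups (adjusted p = 0.0803) and 0.08 between the mutants (adjusted p = 1), and its call was lost without WT replicate 2, 3 or 4 (-0.36 to -0.30, adjusted p = 0.0566 to 0.0896), with the covariates (adjusted p = 0.363) and with the GC offset (adjusted p = 0.0972). The median log2 fold change in FUN025/FUN025 eyecups was 0.53 for the desaturases, 0.27 for substrate supply and 0.10 for the elongation cycle members, beside -0.007 for all genes.

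**Figure D5:**
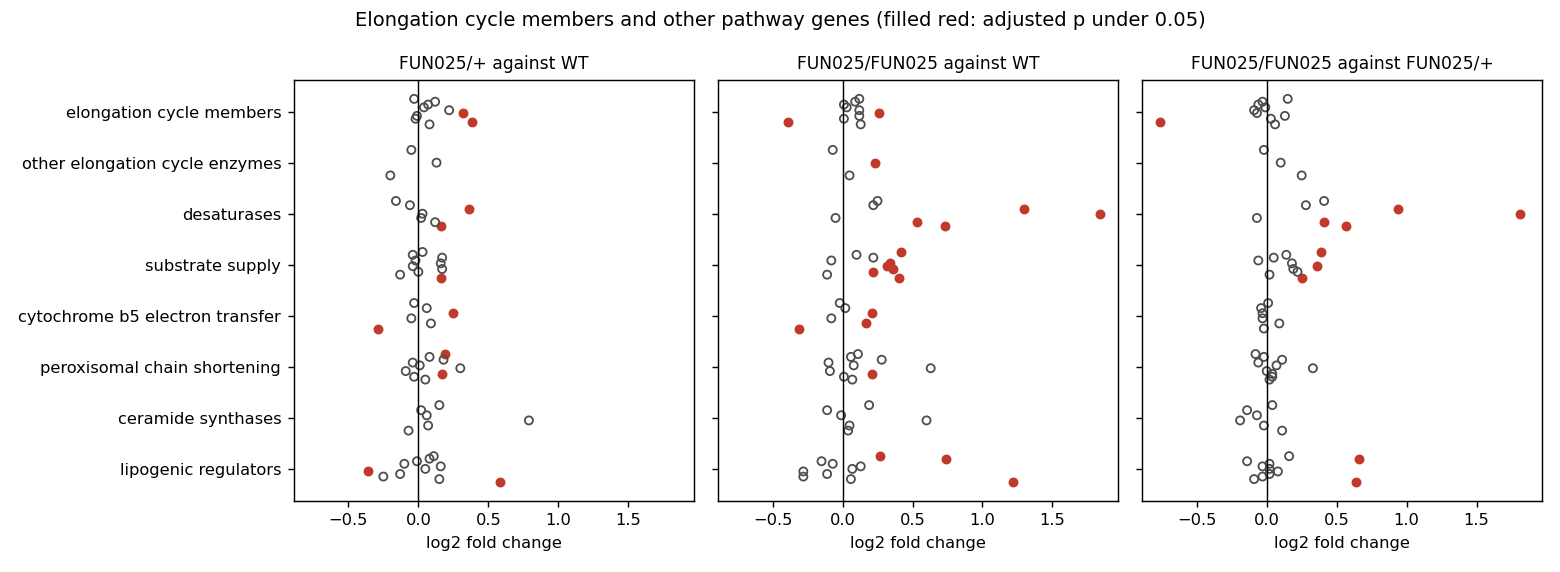
Log2 fold change of the elongation cycle members and of the genes of 7 other lists in the 3 comparisons, with 1 point per gene, filled red where the adjusted p was under 0.05. In FUN025/FUN025 against WT the desaturases reach 1.84, while the members lie between -0.39 and 0.26.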

How the data were processed

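Posterior eyecup RNA of 15 mice was enriched for poly(A) RNA and sequenced in paired ends. The authors deposited raw counts per gene for each library, whole numbers without normalization; the submitters' processing notes name FastQC 0.11.8, Trimmomatic 0.39, HISAT2 2.1.0, SAMtools, featureCounts 2.0.0 and GRCm38. The strand setting and the treatment of reads with several matches are not given in the sources used here. Symbols, positions and exon lengths came from GENCODE M21, which holds 55240 of the 55421 genes listed.

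Following the study's methods, genes in the bottom 15% by variance were dropped and edgeR was used. Low counts were dropped with filterByExpr, which left 18979 genes. TMM scaling (factors 0.977 to 1.02), the robust quasi-likelihood test of edgeR 4.0.16 with all 15 libraries in 1 fit, and Benjamini-Hochberg adjustment over all tested genes at 0.05 were used. CPM and RPKM use TMM-scaled totals. Simulated counts for 18979 genes with 200 changed 2-fold gave 78% recovery of those genes in FUN025/FUN025 against WT. No member changed 2-fold, so this does not give the recovery of changes of the members' size. DESeq2 1.42.0 and limma 3.58.1 served as alternatives, with R 4.3.3 and Python 3.11.15. No libraries of the same genotype were alike within sampling noise (chi-square per gene 3.23 to 18.9 over 31 pairs).

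The members, lists and tests were chosen with earlier results of these data known. All 10 members are named, with the other cycle enzymes, up to 4 called genes of each other list by size of change in FUN025/FUN025, Tmem135 and the 3 genes most like each member called in FUN025/FUN025 against WT with a change of at least 0.3, which was Elovl2; further marker genes were named after their values were seen.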

Additional observations from a re-analysis of the deposited data

Results flagged for a closer look

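Elovl2 lay on opposite sides of WT in the mutant genotypes, at 0.38 in FUN025/+ and -0.39 in FUN025/FUN025 eyecups (adjusted p = 0.0164 and 0.0182). The difference between the mutants was -0.76 on the log2 scale (adjusted p = 0.000166, all by edgeR's quasi-likelihood test). Both changes against WT rest on the same WT libraries, which overlapped both mutant genotypes. Each lost its call with some libraries left out and with the photoreceptor and muscle covariates. Elovl6 stood at 85.2 CPM in FUN025/+ replicate 6, far above the next FUN025/+ library at 70.2 CPM, a gap of 0.794 of the range of its genotype; without that library its change against WT was 0.26 (adjusted p = 0.00611). Hsd17b12 stood at 154 CPM in FUN025/+ replicate 1, below the next library at 167 CPM, a gap of 0.653 of the range; without it the change against WT was 0.15 (adjusted p = 0.0895). The spread was examined in 30 groups of libraries, and chance sets apart a library in about 5% of groups.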

How the results depend on the processing

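The difference of Elovl2 between mutant genotypes passed under all 30 alternatives, with values of -0.82 to -0.65. Against WT, 2 members passed in each comparison by default. In FUN025/+ against WT the count was 1 with the replicate number as a block, where Elovl2 was at 0.33 (adjusted p = 0.062), 0 with photoreceptor and muscle covariates, and 1 to 3 with a library left out. In FUN025/FUN025 against WT it was 0 with those covariates, 4 with the RPE covariate, which added Elovl5 (0.16, adjusted p = 0.0375) and Elovl7 (0.20, adjusted p = 0.0452), and 0 to 2 with a library left out, 0 being without WT replicate 2. Between the mutants it was 1 throughout. The counts over all genes, 2598, 2663 and 99, became 273 and 712 against WT with the covariates, 171 between the mutants with DESeq2's Wald test, and 1433 to 2721, 1519 to 2697 and 68 to 106 with a library left out, the lowest against WT being without WT replicate 4. The cause was not tested. The block changed no other call of a member, but that of Hacd4 (0.19, adjusted p = 0.064), Cyb5b (0.15, adjusted p = 0.0638), Scp2 (0.15, adjusted p = 0.152) and Nr1h3 (-0.37, adjusted p = 0.0517) against WT was lost. Same-numbered libraries come from different mice, and the correlations of their deviations ran from -0.385 to 0.133, so the numbers do not pair them.

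Small changes that did not pass changed sign under some alternatives. In FUN025/+ against WT these were Elovl4 (0.01 with limma-voom and with the RPE covariate, 0.03 with the block, 0.50 with photoreceptor and muscle covariates), Elovl5 (0.00 with protein-coding genes alone), Tecr (0.04 with the covariates, 0.06 with the GC offset) and Hacd2 (-0.04 and -0.00 with the same). In FUN025/FUN025 against WT these were Elovl4 (-0.03 with the RPE covariate, -0.05 with the GC offset), Elovl7 (-0.00 with the covariates), Hacd2 (-0.03, -0.00 and -0.01 with the covariates, the RPE covariate and the GC offset), Hacd3 (-0.02 with the block, -0.03 with the GC offset), Hacd1 (-0.00 with the GC offset) and Tecrl (0.02, 0.54 and 0.06 with the block, the covariates and the RPE covariate). Between the mutants these were Elovl4 (-0.01 with the block, -0.04 with either set of covariates), Elovl7 (0.02 with the RPE covariate) and Hacd2 (0.00 with the block and with the covariates). With a library left out, the ranges of those that changed sign were -0.10 to 0.17, -0.03 to 0.04 and -0.06 to 0.02 for Elovl4, Elovl5 and Tecr in FUN025/+ against WT, -0.08 to 0.20, -0.02 to 0.04, -0.01 to 0.11 and -0.30 to 0.28 for Elovl4, Hacd3, Hacd1 and Tecrl in FUN025/FUN025 against WT, and -0.02 to 0.09, -0.07 to 0.01 and -0.04 to 0.03 for Elovl4, Hsd17b12 and Hacd2 between the mutants. The alternatives were run in all 3 comparisons for the members, Tmem135, Dgkb, Gpr139 and Itgav, and for the named pathway genes in FUN025/FUN025 against WT, with Scp2 and Nr1h3 also in FUN025/+ against WT. Gpr139 passed between the mutants under some of them (adjusted p = 0.0436 with library totals alone), and Tmem135 lost its call in FUN025/+ against WT without WT replicate 2 or 4 (adjusted p = 0.0505 and 0.0858), with the photoreceptor and muscle covariates (0.262) and with the GC offset (0.0756), and passed between the mutants with no low-count filter (0.0475), with DESeq2 (0.0413), without FUN025/+ replicate 5 (0.0296) and with the RPE covariate (0.0157). The RPE covariate and the GC offset were chosen after seeing the data. Thinning all libraries to the smallest total changed no call of a member, and neither did the Xist level as a covariate, used as a measure of sex.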
